A study of Mus musculus with 19 samples.

Results

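The genes described here are 10 F-box genes of the mouse that lie in one stretch of chromosome 9 and whose RNA is found in the oocyte: *Fbxw13*, *Fbxw14*, *Fbxw15*, *Fbxw16*, *Fbxw18*, *Fbxw19*, *Fbxw20*, *Fbxw21*, *Fbxw22* and *Fbxw24*. They were chosen by symbol from a table of 25891 genes, and all 10 were in it. RNA was sequenced from MII oocytes (mature oocytes arrested in metaphase II) and from 2cell embryos of a mouse line with an oocyte-specific conditional deletion of *Cpeb3*, which encodes an RNA-binding protein of cytoplasmic polyadenylation. The 19 libraries are labelled Het (CPEB3+/-; 5 MII and 5 2cell) and KO (CPEB3-/-; 5 MII and 4 2cell). The question the design poses is which RNAs differ between CPEB3-/- and CPEB3+/- oocytes, and how this looks at the 2cell stage.

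All females were BL6 mice 6 to 10 weeks old, superovulated with PMSG. The labels give hCG for MII oocytes obtained in vivo and for the mated females, and the route by which the sequenced MII oocytes matured is not stated in the sources used here. KO females carry LoxP sites in both copies of *Cpeb3* and the Cre recombinase under the ZP3 promoter, which acts in the growing oocyte, so other cells of the female keep the gene. Het females are the heterozygous cKO animals of the same line and keep 1 copy. Het and KO name the genotype of the mother. The 2cell embryos came from mated females (wild-type males, in the study's account of its embryo work, so that an embryo of a KO mother can carry an intact paternal copy), were cultured in M16 medium and were collected 37 h after hCG. Each library was made from 5 cells, according to the methods, and the labels do not say which libraries came from separate animals, so p-values measure the spread between libraries, which may be technical.

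F-box proteins are the substrate receptors of SCF ubiquitin ligases, in which the F-box binds Skp1, Skp1 binds the scaffold Cul1, and Rbx1 recruits the enzyme that carries ubiquitin. In Fbxw proteins the substrate is held by WD40 repeats, which fold into a propeller. The cluster on chromosome 9 is an expanded branch of this class in the mouse, while relatives elsewhere in the genome, such as Fbxw7, occur in most tissues. MII oocytes do not transcribe, and much of the RNA stored in them is removed by the 2cell stage.

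In GRCm38 (GENCODE annotation) the 10 genes span positions 109139447 to 109702700 of chromosome 9, a stretch of 563 kb. The order along the chromosome is *Fbxw21*, *Fbxw13*, *Fbxw20*, *Fbxw14*, *Fbxw22*, *Fbxw16*, *Fbxw19*, *Fbxw15*, *Fbxw24* and *Fbxw18*. All are on the minus strand, as are 5 further copies (*Fbxw23*, *Fbxw25*, *Fbxw26*, *Fbxw27* and *Fbxw28*) that are not among the 10. *Fbxw28*, *Fbxw23* and *Fbxw25* lie between members, and *Fbxw26* and *Fbxw27* lie beyond *Fbxw18*. The exons of the 10 members cover between 1488 bases (*Fbxw24*) and 3487 bases (*Fbxw19*). The longest transcript of each member has a GC content of 38.3 to 44.6%, against a median of 48.4% over all genes.

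The copies resemble each other before as well as within the transcript. Promoter sequences (250 bases before to 50 after the start, RefSeq, GRCm38.p6) were found for 8 of the 10, and the 28 pairs were 85.9 to 97.4% identical (median 91.0%). The 100 bases before the annotated start are shown for the most abundant member, *Fbxw24*, and for the 4 members that differed between the genotypes by the test used below. They are printed 5′ to 3′ on the minus strand, and capitals mark the letters TTTAAA.

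Fbxw24: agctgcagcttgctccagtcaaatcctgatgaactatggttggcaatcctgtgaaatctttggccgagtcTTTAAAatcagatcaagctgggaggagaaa
Fbxw14: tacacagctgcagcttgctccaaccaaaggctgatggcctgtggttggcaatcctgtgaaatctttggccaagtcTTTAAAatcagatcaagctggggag
Fbxw18: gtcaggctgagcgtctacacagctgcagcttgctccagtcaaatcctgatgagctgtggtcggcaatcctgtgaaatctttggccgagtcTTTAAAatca
Fbxw16: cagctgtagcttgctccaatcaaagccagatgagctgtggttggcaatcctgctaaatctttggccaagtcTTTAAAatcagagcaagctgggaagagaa
Fbxw20: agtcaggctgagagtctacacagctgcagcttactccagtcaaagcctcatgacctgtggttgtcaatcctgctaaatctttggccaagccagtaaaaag

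These stretches lie on chromosome 9 at 109626060 to 109626159 for *Fbxw24*, 109287677 to 109287776 for *Fbxw14* and 109702701 to 109702800 for *Fbxw18*. Those of *Fbxw16* and *Fbxw20* lie at 109449141 to 109449240 and 109234755 to 109234854. The letters TTTAAA, which read the same on both strands and were picked out after the sequences had been seen, occur in the promoters of 7 of the 8 members, *Fbxw20* being the exception. They occur in 13.1% of 27025 promoters of the same length. The TATA box (TATAAA, both strands) was in 0 of the 8, against 14.2% of all promoters, and the letters TAATTG, which the oocyte factor NOBOX binds, were also in 0 of the 8, against 8.19%. An E-box (CANNTG) was in all 8, against 72.4%. These matches describe the letters of the windows, and no binding was measured here.

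Since the copies are alike, reads can be shared between them. Between the transcripts of the 10 members, identity was 82.7 to 93.3% over 45 pairs (median 85.5%). *Fbxw14* and the non-member *Fbxw28* were 99.2% identical, and 30.2% of all 150-base windows of *Fbxw14* also occur in *Fbxw28*, while no other member shared a window of that length with any copy. The sources used here do not state how reads that fit 2 copies were counted, so the level of *Fbxw14* is uncertain. The library kit does not mark the strand. On the opposite strand, *Gm42494* overlaps *Fbxw16* over 3051 bases, and its own level was at most 0.752 FPKM in any library. *Gm42493* overlaps *Fbxw16* over 496 bases and *Gm42756* overlaps *Fbxw15* over 179 bases, with levels of at most 0.0342 and 0.0812 FPKM.

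The deposited values are FPKM (fragments scaled to the exon length and to the fragments of the library), so they can be compared between genes of different length. Steps between low values put the depth at 17.1 to 23.5 M fragments per library (M, mega; median 19.7 M). This is an estimate, since 43.7 to 47.8% of the low values lay within 0.05 of a whole fragment, where chance gives 10%, and fragment numbers given for single genes are estimates too. No 2 libraries were identical. *Cpeb3* itself was low, at 0.0755 ± 0.0240 FPKM (SD, n = 5) in Het and 0.162 ± 0.0325 FPKM (SD, n = 5) in KO MII libraries, with every KO library above every Het library (log2 fold change 0.53, SE 0.123, adjusted p = 0.0144, limma; the added 0.1 FPKM exceeds the Het level and shrinks this value). In 2cell libraries it was at 0.0303 ± 0.0149 FPKM (SD, n = 5) in Het and 0.0554 ± 0.0129 FPKM (SD, n = 4) in KO. The value counts reads over the whole gene, and the part between the LoxP sites is not given in the sources used here, so it does not check the deletion itself. Het and KO stand for the libraries so labelled. The oocyte markers were present, all 12 of them detected in every group, and 10 of the 11 markers of the 2cell stage were listed, with sums of 37.9 to 45.2 FPKM in Het MII, 46.0 to 61.6 in KO MII, 470.2 to 736 in Het 2cell and 451 to 621 FPKM in KO 2cell libraries. Of 14 cumulus and granulosa cell markers 10 were listed, each below 1 FPKM in every library. The 3 listed blood genes summed to 0.858 to 1.44 FPKM in Het MII and 1.65 to 2.71 FPKM in KO MII libraries, and to 47.7 to 148 FPKM in 2cell libraries, through *Hba-a1* and *Hba-a2*. The 2 listed sperm genes summed to at most 1.26 FPKM.

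In Het MII oocytes the 10 genes together reached 292 ± 31.9 FPKM (SD, n = 5). *Fbxw24* and *Fbxw14* made up most of this sum. *Fbxw24* was at 104, 87.6, 116, 101 and 93.9 FPKM in Het MII replicates A to E, and its mean of 101 FPKM ranked 142nd of the 25891 genes in the table. *Fbxw14* was at 73.5, 59.7, 88.4, 71.1 and 62.5 FPKM in the same libraries. It was below *Fbxw24* in each library, although the ranges of the 2 genes touch.

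Behind this pair came 6 genes of similar level. Their Het MII means ran from *Fbxw19* (23.9 ± 2.65 FPKM) over *Fbxw15* (21.7 ± 1.66), *Fbxw20* (21.6 ± 1.29), *Fbxw18* (18.3 ± 1.73) and *Fbxw22* (16.2 ± 2.31) to *Fbxw16* (14.1 ± 0.882; SD, n = 5 each). The ranges of each gene and the next in this order overlapped, so the order within the 6 is not firm, although *Fbxw19* was above *Fbxw15*, *Fbxw20* above *Fbxw18* and *Fbxw18* above *Fbxw22* in 5 of 5 libraries. Fbxw15 protein has been studied as a receptor for the histone acetyltransferase HBO1. The 2 genes at the end of the cluster with the lowest coordinates were the weakest, with *Fbxw21* at 3.72 ± 0.329 and *Fbxw13* at 0.706 ± 0.129 FPKM, and each was separate from its neighbours in the order. At this level *Fbxw13* rested on about 17.1 to 30.3 fragments a library.

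**Figure D1:**
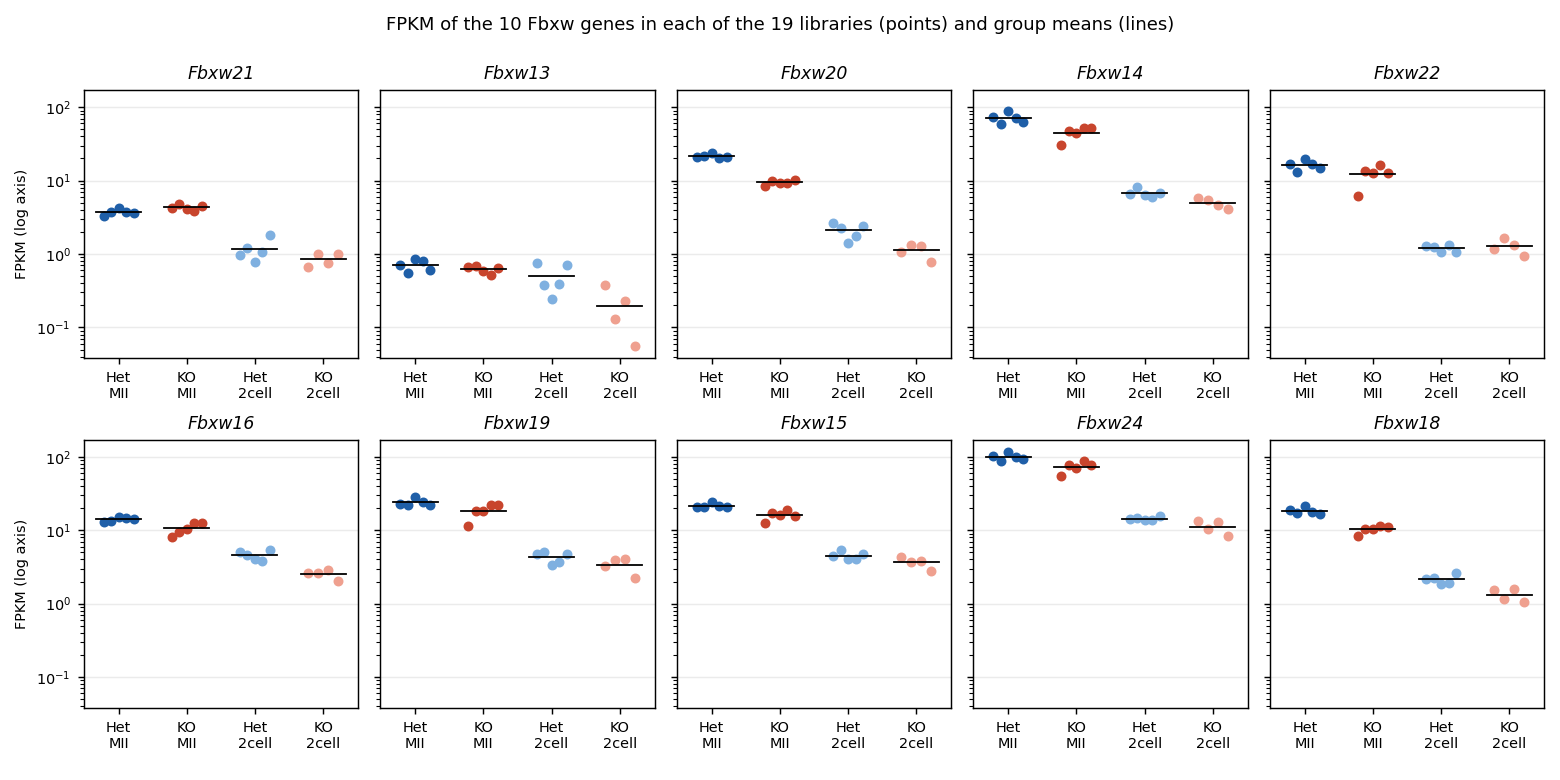
FPKM (log axis) of the 10 genes in the order of the chromosome, with a point for each of the 19 libraries and a line for the mean of each group (5 Het MII, 5 KO MII, 5 Het 2cell, 4 KO 2cell). *Fbxw24* and *Fbxw14* are highest in each group and *Fbxw13* is lowest, and 9 of the 10 genes have every 2cell library below every MII library in both genotypes, *Fbxw13* being the exception in Het (all tested genes, 22.9% in Het and 23.2% in KO).

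In KO MII oocytes, 3 of the 10 genes were called lower than in Het: *Fbxw20*, *Fbxw18* and *Fbxw14*. A gene was called when it had an adjusted p below 0.05 and a difference above 1.5-fold in limma on log2(FPKM + 0.1), with adjustment over all tested genes. The background is that 7.29% of the 10515 genes tested were called lower, and no member was called higher. The sum of the 10 genes was 292 ± 31.9 FPKM in Het and 201 ± 33.1 FPKM in KO (SD, n = 5 each), and the 5 KO libraries at 146 to 233 FPKM lay below the 5 Het libraries at 259 to 342 FPKM.

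*Fbxw20* showed the greatest difference among the 10. It was at 21.3, 21.5, 23.7, 20.4 and 20.8 FPKM in Het and at 8.31, 9.95, 9.36, 9.30 and 10.2 FPKM in KO replicates A to E. The 2 groups lie far apart, and the KO mean was 43.7% of the Het mean. The log2 fold change was -1.29 (SE 0.107, adjusted p = 9.07e-05, limma).

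*Fbxw18* followed. It was at 18.8, 17.0, 21.1, 17.9 and 16.9 FPKM in Het and at 8.49, 10.3, 10.3, 11.4 and 10.99 FPKM in KO replicates A to E. The groups again did not overlap, and the log2 fold change was -0.93 (SE 0.135, adjusted p = 0.00165, limma). Leaving out any 1 of the 10 MII libraries kept both calls.

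For *Fbxw14* the KO libraries were at 30.8, 46.8, 44.9, 51.9 and 51.3 FPKM, below all Het libraries, whose lowest value was 59.7 FPKM. The log2 fold change was -0.76 (SE 0.195, adjusted p = 0.0216, limma), and the call was lost without Het replicate A (adjusted p = 0.0524, limma), with the replicate letter as a block (adjusted p = 0.0682, limma) and, through the fold, with scaling to equal sums of FPKM (-0.58, adjusted p = 0.0261, limma). The nearly identical *Fbxw28* went from 81.2 ± 10.6 to 53.0 ± 12.4 FPKM and was also called (log2 fold change -0.74, SE 0.209, adjusted p = 0.0310, limma), but each of the 2 values may hold reads of the other copy.

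A second set of 3 genes had an adjusted p below 0.05 but less than a 1.5-fold difference. *Fbxw24* was at 55.1, 76.7, 71.5, 86.5 and 77.5 FPKM in KO replicates A to E, each below the lowest Het library (87.6 FPKM), with a log2 fold change of -0.56 (SE 0.162, adjusted p = 0.0336, limma). *Fbxw15* (-0.55, SE 0.136, adjusted p = 0.0189, limma) and *Fbxw16* (-0.52, SE 0.152, adjusted p = 0.0344, limma) gave similar values. All 3 missed the adjusted p with the replicate letter as a block (0.0606 to 0.0912, limma), and *Fbxw24* and *Fbxw16* also with scaling to equal sums of FPKM (0.0577 and 0.0838) and with no filter on low values (0.0689 and 0.0623). Like the 3 called genes, these 3 had every KO library below every Het library on the FPKM as deposited. This held for 6 of the 10 members, against 7.57% of all tested genes. It depends on scaling. Divided by the factors used for limma (1.03 for Het replicate B, 0.996 for KO replicate D), the *Fbxw24* values of these libraries change order. In each of the 6, the two-sided exact permutation test of the FPKM gave p = 0.00794 unadjusted, the smallest that these libraries allow. This p follows from the lack of overlap and adds nothing to it.

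The other 4 genes did not pass the test. *Fbxw22* (log2 fold change -0.55, SE 0.260, adjusted p = 0.149, limma) and *Fbxw19* (-0.50, SE 0.200, adjusted p = 0.10, limma) had estimates close to those of the second set with a wider spread. With the trend with GC content removed, the estimate of *Fbxw19* was -0.20, while those of *Fbxw24*, *Fbxw15* and *Fbxw16* were -0.44 to -0.41. *Fbxw19* has the lowest GC content of the 10 by its longest transcript, and which transcript the oocytes held was not tested. In *Fbxw22* and *Fbxw19* KO replicate A was the lowest library, at 6.15 and 11.6 FPKM. *Fbxw13* had a log2 fold change of -0.25 (95% interval -0.58 to 0.09, adjusted p = 0.260, limma).

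*Fbxw21*, the outermost gene on the side of *Fbxw13*, was the member with an estimate above 0. It was at 3.34, 3.69, 4.23, 3.79 and 3.58 FPKM in Het and at 4.18, 4.80, 4.16, 3.88 and 4.48 FPKM in KO replicates A to E. The ranges overlapped, and the log2 fold change was 0.11 (95% interval -0.13 to 0.34, adjusted p = 0.488, limma). With scaling to equal sums of FPKM it was 0.28 (adjusted p = 0.0413, limma), still under 1.5-fold. On the FPKM as deposited the KO mean was higher (two-sided exact permutation test, p = 0.0317, unadjusted).

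**Figure D2:**
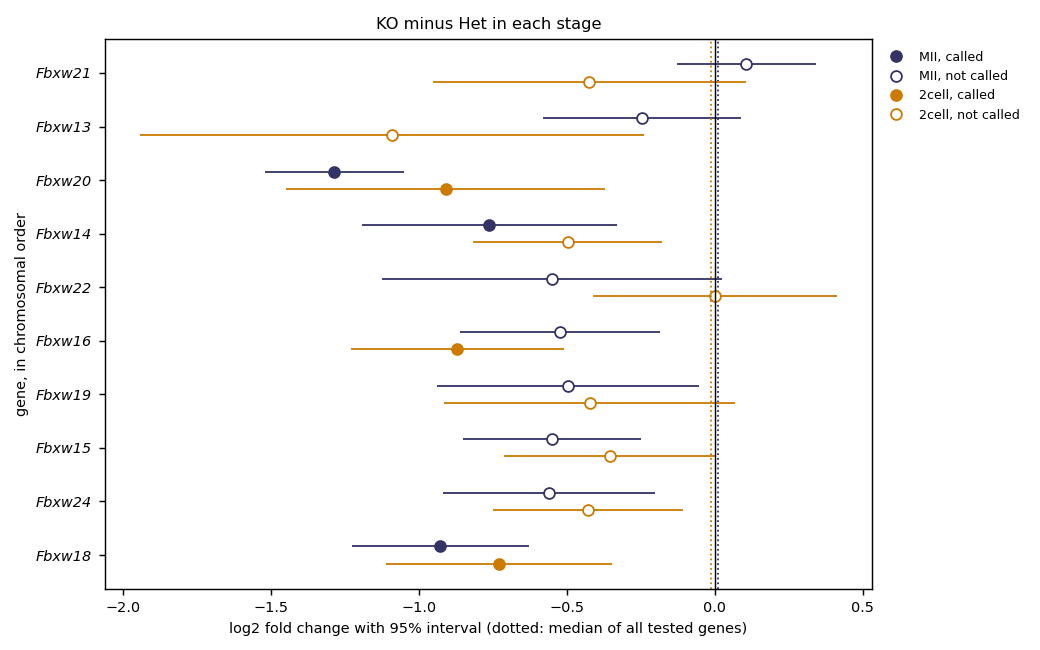
Log2 fold changes (KO minus Het) of the 10 genes in MII oocytes and in 2cell embryos, in the order of the chromosome, with 95% intervals. Filled points were called, and dotted lines show the median of all tested genes (0.01 in MII and -0.01 in 2cell). The estimates lie to the left of these lines except for *Fbxw21* in MII (0.11) and *Fbxw22* in 2cell (0.00089).

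Over the 10 genes the median log2 fold change in MII oocytes was -0.55, against 0.01 over all tested genes. Without the library that stood lowest, KO replicate A, and without the highest, Het replicate C, 3 genes were still called in each case. The count rose to 6 without KO replicate D and to 5 without Het replicate B, Het replicate E or KO replicate E. Across all tested genes the log2 fold change rose with GC content (Pearson's r = 0.313 over 10194 genes, which are not independent), and with this trend removed the same 3 genes were called and the median of the 10 was -0.41. Of the 12 oocyte markers, 2 were called lower in KO MII libraries (*Mos* and *Dppa3*) and 0 higher, with estimates from -1.75 to 0.34. Their sum, of which *Dppa3* is the greatest part, was 1905 to 1989 FPKM in Het and 1267 to 1541 FPKM in KO. The sums of the 2cell-stage markers and of the blood genes were higher in every KO than in every Het MII library, and *Zscan4d* (2.89, SE 0.236), *Zscan4c* (2.24, SE 0.295) and the macrophage gene *Cd68* (0.93, SE 0.162) were called higher in KO. The part of these markers in the result was not tested. Each library pools 5 cells, so less RNA in every cell and fewer cells holding the RNA cannot be told apart. The kit primes on poly(A) tails, so less RNA and poorer capture of shorter tails cannot be told apart either. This holds between the stages too, and tail length was not measured in these libraries.

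The shares of the members within their sum do not depend on how libraries are scaled. *Fbxw24* held 33.8 to 35.2% of the sum in Het and 35.6 to 37.7% in KO MII libraries, with no overlap. The share of *Fbxw20* was 6.93 to 8.31% in Het and 3.99 to 5.69% in KO libraries, with no overlap. *Fbxw18* went from 6.12 to 6.58% in Het to 4.89 to 5.81% in KO, also with no overlap. In the same direction as *Fbxw24*, *Fbxw21* held 1.13 to 1.42% in Het and 1.67 to 2.86% in KO libraries. In these 4 genes the shares of the groups did not overlap, and in the other 6 they did.

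**Figure D3:**
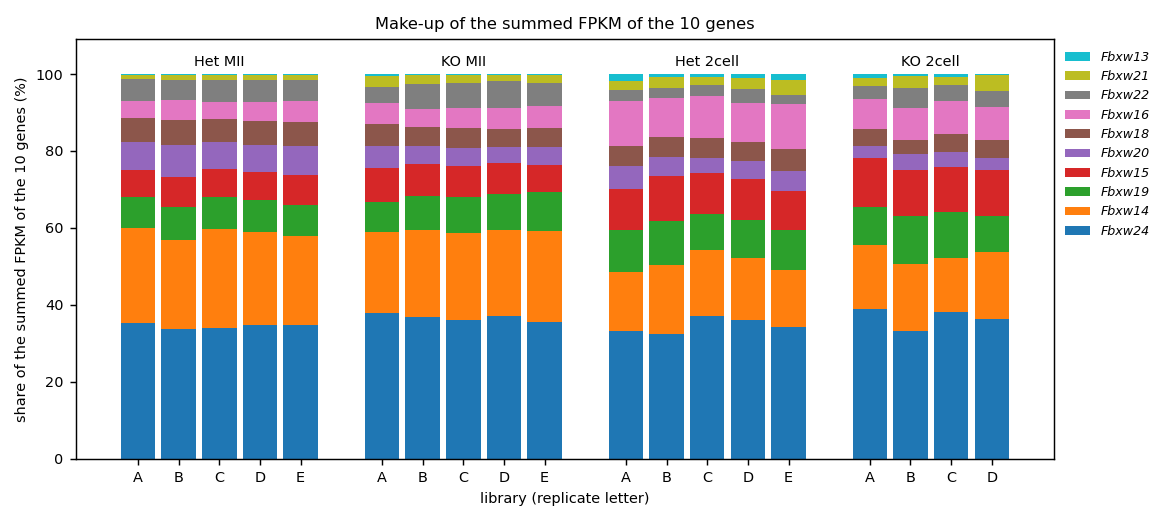
Share (%) of each gene in the summed FPKM of the 10 genes, with a bar for each of the 19 libraries under its replicate letter. *Fbxw24* has the largest share in all 4 groups (means of 34.5, 36.7, 34.6 and 36.6%), while *Fbxw14* takes less and *Fbxw16* more of the sum in 2cell than in MII libraries.

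In 2cell embryos, 3 of the 10 genes were called lower in KO: *Fbxw16*, *Fbxw20* and *Fbxw18*. The background is that 9.85% of the 14051 genes tested were called lower, and no member was called higher. The levels were then much lower, with sums of 41.8 ± 4.21 FPKM (SD, n = 5) in Het and 30.6 ± 4.91 FPKM (SD, n = 4) in KO libraries. The median log2 fold change of the 10 genes was -0.46, against -0.01 over all tested genes.

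*Fbxw16* was the clearest of the 3 in 2cell embryos. It was at 4.99, 4.61, 4.05, 3.82 and 5.42 FPKM in Het replicates A to E and at 2.65, 2.60, 2.91 and 2.06 FPKM in KO replicates A to D. Every KO library was below every Het library, and the log2 fold change was -0.87 (SE 0.161, adjusted p = 0.00677, limma). Leaving out any 1 of the 9 2cell libraries kept this call, and the replicate letter as a block ended it (adjusted p = 0.0626, limma).

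*Fbxw20* was at 2.64, 2.29, 1.42, 1.77 and 2.42 FPKM in Het and at 1.05, 1.34, 1.30 and 0.768 FPKM in KO libraries. The groups did not overlap, with 1.34 FPKM as the highest KO and 1.42 FPKM as the lowest Het value, and the log2 fold change was -0.91 (SE 0.241, adjusted p = 0.0271, limma). *Fbxw18* had Het values of 1.88 to 2.58 FPKM and KO values of 1.05 to 1.60 FPKM (log2 fold change -0.73, SE 0.171, adjusted p = 0.0167, limma). These 2 genes were called lower in KO in both stages, but in 2cell embryos not with the replicate letter as a block (adjusted p = 0.107 for *Fbxw20* and 0.102 for *Fbxw18*, limma).

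*Fbxw14* passed the adjusted p but not the fold, with 6.79 ± 0.779 FPKM (SD, n = 5) in Het and 4.98 ± 0.726 FPKM (SD, n = 4) in KO (log2 fold change -0.50, SE 0.143, adjusted p = 0.0359, limma). The adjusted p was above 0.05 on the values as deposited (0.0523), with quantile scaling (0.0740), with a filter of 1 FPKM (0.0677), with all 19 libraries in 1 fit (0.0673) and with the replicate letter as a block (0.0983, limma). With the trend with GC content removed the estimate was -0.28 (adjusted p = 0.179, limma), and with scaling to equal sums of FPKM it was -0.15 (adjusted p = 0.479, limma). *Fbxw24* had no overlap either, with 13.6 to 15.8 FPKM in Het and 8.49 to 13.2 FPKM in KO libraries, but missed the adjusted p (-0.43, SE 0.143, adjusted p = 0.0616, limma). In all, 5 of the 10 members had every KO library below every Het library on the FPKM as deposited, against 9.56% of all tested genes. In each, the two-sided exact permutation test gave p = 0.0159 unadjusted, the smallest that these libraries allow. As in MII oocytes, this p follows from the lack of overlap.

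The remaining genes differed by less than the spread allows to call. *Fbxw22*, at 1.20 ± 0.128 FPKM (SD, n = 5) in Het and 1.27 ± 0.294 FPKM (SD, n = 4) in KO, had a 95% interval of -0.41 to 0.41 on the log2 scale. *Fbxw13* had a low estimate with a wide error (-1.09, 95% interval -1.94 to -0.24, adjusted p = 0.0707, limma), and rested on 1.61 to 10.7 fragments in KO libraries. *Fbxw15*, *Fbxw19* and *Fbxw21* had estimates of -0.36, -0.42 and -0.43, with adjusted p from 0.148 to 0.234 (limma).

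The 2cell calls were less firm than those in MII oocytes. KO replicate D was the lowest library for 9 of the 10 genes, and without it *Fbxw16* was the 1 gene called (*Fbxw18* adjusted p = 0.0542 and *Fbxw20* adjusted p = 0.0766, limma). *Fbxw16* was also the 1 gene called once the trend with GC content (Pearson's r = 0.358 over 13617 genes) was removed, with a median of the 10 of -0.26 in place of -0.46. When libraries were instead scaled to equal sums of FPKM, which moved the median of all genes to 0.26, 0 genes were called and the median of the 10 was -0.13. Of the markers, *Oosp1* of the oocyte (-0.70), *Zscan4d* of the 2cell stage (-1.03) and *Tnfaip6* of cumulus cells (-1.01) were called lower in KO 2cell embryos, and their part in the result was not tested. Of all called genes, 46.0% were higher in KO 2cell embryos and 43.4% in KO MII oocytes. With sum scaling this became 81.0% and 70.1%, and with the values as deposited 52.3% and 57.1%.

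The difference between the genotypes was then compared between the stages. In 1 limma fit of all 19 libraries, the difference of the log2 fold changes was called for 0 of the 10 members, and 0 had an unadjusted p below 0.05. The background is that 7.64% of the 15786 genes tested were called in either direction. The estimates ran from -0.78 for *Fbxw13* (95% interval -1.62 to 0.06) to 0.60 for *Fbxw22* (-0.11 to 1.30). For *Fbxw20* the estimate was 0.43 (-0.10 to 0.95). With intervals this wide, smaller differences between the stages were not detectable. With a pseudocount of 1 FPKM the difference for *Fbxw20* was called (0.68, adjusted p = 0.0211, limma).

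Between MII oocytes and 2cell embryos, all 10 genes fell in both genotypes. Against this, 28.5% of the 15786 tested genes were called lower in Het and 27.0% in KO, and the median of all tested genes was 0.20 and 0.21. With quantile scaling this median was -0.24 and -0.26, and all 10 genes were called there too. On the FPKM as deposited, the sum of the 10 genes in 2cell embryos was 14.3% of that in MII oocytes in Het and 15.3% in KO. The median log2 fold change was -2.87 in Het and -2.72 in KO. With scaling to equal sums of FPKM it was -3.40 in Het and -3.13 in KO. The members were chosen as genes with RNA in the oocyte, so a fall is partly built into the choice. Of the 12 oocyte markers, 10 were called lower in Het and 9 in KO, with medians of -1.73 and -1.72.

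The depth of the fall differed among the members. In Het, *Fbxw22* fell most, from 16.2 ± 2.31 to 1.20 ± 0.128 FPKM (SD, n = 5 each), a log2 fold change of -3.88 (SE 0.230, adjusted p = 2.91e-11, limma). With a pseudocount of 1 FPKM *Fbxw14* fell more (-3.43) than *Fbxw22* (-3.15). *Fbxw14* (-3.61, SE 0.178), *Fbxw20* (-3.56, SE 0.171) and *Fbxw18* (-3.27, SE 0.149) followed. *Fbxw24*, the most abundant, fell 6.99-fold in mean FPKM and still ranked 984th of the 25891 genes in Het 2cell embryos.

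Smaller falls were seen in *Fbxw16* (-1.86, SE 0.152), *Fbxw21* (-1.87, SE 0.176) and *Fbxw13* (-0.71, SE 0.274, adjusted p = 0.0272, limma). *Fbxw13* was at 0.719, 0.546, 0.853, 0.802 and 0.609 FPKM in Het MII and at 0.759, 0.383, 0.245, 0.394 and 0.716 FPKM in Het 2cell replicates A to E. These ranges overlapped, and 6 of the 10 fits that left out 1 library did not call it. Its call in Het was also lost on the FPKM as deposited (-0.50, adjusted p = 0.107, limma). With a pseudocount of 1 FPKM the fold was too small in Het (-0.29) and in KO (-0.47). The share of *Fbxw16* in the sum went from 4.41 to 5.32% in Het MII to 10.1 to 11.8% in Het 2cell libraries, while that of *Fbxw14* went from 23.0 to 25.8% to 14.9 to 17.9%. In KO, *Fbxw16* made up 4.63 to 5.78% and then 7.79 to 8.78%.

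In KO the same 10 genes fell, from -1.49 for *Fbxw13* (SE 0.290, adjusted p = 1.63e-04, limma) to -3.29 for *Fbxw14* (SE 0.188, adjusted p = 2.05e-11, limma). *Fbxw22* followed at -3.28 (SE 0.244). No call was lost without any 1 of the 9 KO libraries. The rise of the 2 haemoglobin genes in 2cell libraries moved with the stage in both genotypes. Of the cumulus and granulosa cell markers, *Tnfaip6* was called higher (1.77 in Het and 0.84 in KO) and *Cyp19a1* lower (-1.64 and -1.60). The part of these markers in these results was not tested.

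**Figure D4:**
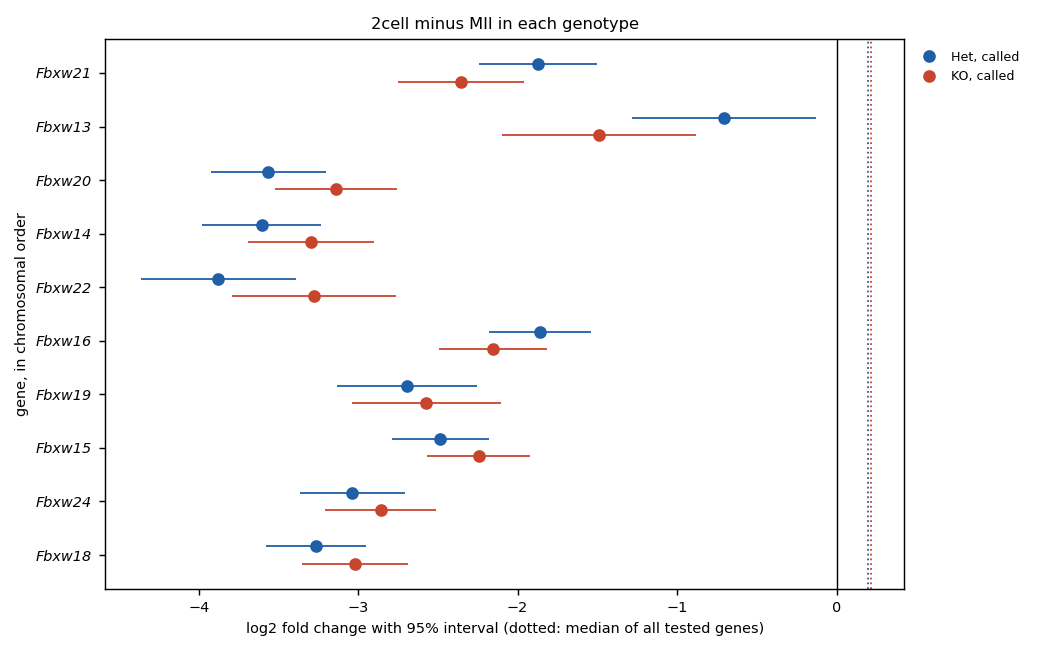
Log2 fold changes (2cell minus MII) of the 10 genes in Het and in KO libraries, with 95% intervals, in the order of the chromosome. All points are filled, since all were called, and lie between -3.88 and -0.71, below the dotted medians of all tested genes (0.20 in Het and 0.21 in KO).

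The order of levels changed between the stages. In Het 2cell embryos *Fbxw24* (14.4 ± 0.898 FPKM) and *Fbxw14* (6.79 ± 0.779 FPKM) were again the highest and separate from the rest. *Fbxw16* (4.58 ± 0.660), *Fbxw15* (4.53 ± 0.535) and *Fbxw19* (4.33 ± 0.745) came next and could not be told apart. *Fbxw18* (2.17 ± 0.285) and *Fbxw20* (2.11 ± 0.497) formed a further pair with overlapping ranges, as did *Fbxw22* (1.20 ± 0.128) and *Fbxw21* (1.17 ± 0.386), and *Fbxw13* was lowest at 0.50 ± 0.226 FPKM (SD, n = 5 each). *Fbxw16*, the lowest of the 6 genes of similar level in MII oocytes, was thus no longer below them. In KO 2cell embryos the order was the same for the highest 2, and *Fbxw16* stood below *Fbxw15* and *Fbxw19* in mean.

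The deviations of the members from their group means went together from library to library. After scaling, the correlation between 2 members had a median of 0.867 over 45 pairs in MII libraries (0.212 to 0.988, n = 10 libraries) and of 0.680 in 2cell libraries (-0.07 to 0.947, n = 9 libraries). These points share the library, its depth and the base composition of the copies. Het MII replicate C was the highest of its group for all 10 genes, at 127% of the group mean of the scaled sum. KO MII replicate A was the lowest for 9, at 68.3%, and KO 2cell replicate D for 9, at 76.8%.

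The 5 copies outside the 10 had estimates below 0 for KO against Het in both stages, from -0.74 to -0.31 in MII and from -0.52 to -0.17 in 2cell libraries. In MII oocytes *Fbxw28* and the pseudogene *Fbxw23* were called lower in KO, the latter from 5.02 ± 0.516 to 3.25 ± 0.448 FPKM (log2 fold change -0.71, SE 0.147, adjusted p = 0.00916, limma), and in 2cell embryos 0 of the 5 were. *Fbxw27* (-0.44, adjusted p = 0.0113, limma) and *Fbxw26* (-0.31, adjusted p = 0.0345, limma) passed the adjusted p but not the fold in MII oocytes, as did *Fbxw28* in 2cell embryos (-0.52, adjusted p = 0.0371, limma). From MII to 2cell, 4 of the 5 fell in each genotype, *Fbxw28* the most (-4.43 in Het, SE 0.192, and -4.17 in KO, SE 0.204). *Fbxw23* did not, at 5.02 ± 0.516 and 5.21 ± 1.53 FPKM in Het (log2 fold change -0.23, 95% interval -0.61 to 0.16, limma). Of the 3 other genes of the interval in the table, 1 was tested, *Gm42494*, which was called lower in 2cell than in MII libraries of both genotypes and not between the genotypes. Of the Fbxw genes elsewhere in the genome, 3 of 9 were tested in MII oocytes and 5 in 2cell embryos, and 0 were called between the genotypes, although *Fbxw4* passed the adjusted p but not the fold in MII oocytes (-0.49, adjusted p = 0.0164, limma). Between the stages 6 were tested, and *Fbxw9* was called higher and *Fbxw17* lower in both genotypes.

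The rest of the SCF machinery was read from a list of 43 symbols, 42 of them in the table, made up of the core subunits, the neddylation enzymes that switch cullins on, the COP9 signalosome that switches them off, and other F-box genes. In MII oocytes 34 were tested, 0 were called higher and 2 lower in KO, where 5.59% and 7.29% of all tested genes were called. These were *Nae1*, a subunit of the enzyme that activates Nedd8 (log2 fold change -0.89, SE 0.238, adjusted p = 0.0255, limma), and *Cops2*, a signalosome subunit (-0.84, SE 0.233, adjusted p = 0.0295, limma). The median of the list was -0.06. The adaptor *Skp1a*, which the members would bind, was not called in MII oocytes (-0.11, 95% interval -0.31 to 0.08) or in 2cell embryos (-0.58, 95% interval -1.01 to -0.15, adjusted p = 0.0614, limma). From MII to 2cell it fell in both genotypes (-0.88 in Het and -1.30 in KO).

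In 2cell embryos, 36 genes of the list were tested, 1 was called higher and 8 were called lower in KO, against 8.41% and 9.85% of all tested genes. The greatest falls were those of *Cops2* (-1.23, SE 0.178, adjusted p = 0.00275, limma) and of the neddylation ligase *Dcun1d1* (-1.13, SE 0.240, adjusted p = 0.0112, limma), and the rise was that of the ubiquitin-conjugating enzyme *Cdc34* (0.68, SE 0.186, adjusted p = 0.0298, limma). The median was -0.11, against -0.46 for the 10 members. The difference between the genotypes changed between the stages for 1 gene of the list, *Cops6* (-1.05, SE 0.224, adjusted p = 0.00806, limma).

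Between the stages the list moved in both directions, as did all tested genes (38.0% called higher and 28.5% lower in Het, 38.2% and 27.0% in KO). Of 38 tested genes 9 rose and 15 fell in Het, and 9 rose and 13 fell in KO, with medians of -0.20 and -0.06. The RING protein *Rnf7* rose most in Het (3.69, SE 0.200) and in KO (2.89, SE 0.212), followed by *Cops6* in Het (2.36) and *Fbxw9* in KO (2.54). *Glmn*, whose product binds Rbx1, and *Cops8* fell most in Het (-2.68 and -2.05), and *Cops3* and *Glmn* in KO (-2.75 and -2.72).

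The 5 genes outside the 10 whose pattern over the 19 libraries was most like the summed level of the members were taken from 5270 genes with a mean of at least 1 FPKM. By Pearson's r of log2(FPKM + 0.1) they were *Smn1* (0.996), *Fbxw28* (0.995), *Zfp955b* (0.995), *2700049A03Rik* (0.993) and *Ccdc69* (0.993). The points share their library, and the 10 MII libraries lie apart from the 9 2cell libraries, so the values carry no test. With a pseudocount of 1 FPKM, 4 of these 5 were among the first 5. The levels of *Ccdc69* were close to those of *Fbxw14*, at 83.5 FPKM in Het MII, 54.1 in KO MII, 7.67 in Het 2cell and 6.13 in KO 2cell libraries, and *Smn1*, which encodes a protein of snRNP assembly, went from 22.9 and 19.5 to 4.92 and 3.55 FPKM.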

How the data were processed

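RNA of 5 cells per library was reverse transcribed with a SMART-seq v4 kit, which primes on poly(A) tails, and sequenced as paired 150 bp reads. The submitters' processing notes name Trim Galore 0.4.1, HISAT2 2.0.5 and GRCm38, and the authors computed the deposited FPKM values in SeqMonk. No count was used, although the table is named as one. There were 0 unused columns. The labels list 19 libraries where the methods give quadruplicates, and all 19 were used. The design assumed FPKM or counts, and the FPKM form was used.

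Symbols, positions and exons were taken from GENCODE vM21, which matched 97.0% of the 25891 genes. Scaling used the trimmed mean of the log ratios to a reference library (trims of 30% on the ratios and 5% on the levels). A gene was tested if it reached 0.1 FPKM in 5 MII or in 4 2cell libraries, or, between stages, in 4 of all 19. log2(FPKM + 0.1) was fitted with limma 3.58.1 (R 4.3.3) with a trended variance, with Benjamini-Hochberg adjustment over all tested genes. Genes with an adjusted p below 0.05 and more than 1.5-fold were called. Fold changes on this scale understate those of low genes. Exact permutation tests (two-sided, scipy 1.17.1) compared the FPKM of each member in each stage, 20 tests in all, unadjusted. Transcripts and promoters were aligned with biopython 1.88.

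All 10 members are named. SCF genes are named if among the 2 greatest rises or falls called in a comparison, other Fbxw copies by counts with called ones named. *Fbxw4*, *Fbxw23*, *Fbxw25*, *Fbxw26*, *Fbxw27*, *Skp1a* and the values of *Ccdc69* and *Smn1* were singled out after they were seen. The members and lists were chosen with earlier results of these data known. In simulated data the fit called 76% of 2-fold and 94% of 4-fold changes in 10177 MII genes, and 49% and 88% in 13592 2cell genes.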

Additional observations from a re-analysis of the deposited data

Results flagged for a closer look

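In 1 of the 40 sets of values (10 genes in 4 groups), 1 library lay apart from the others of its group by Dixon's criterion (critical values 0.71 for 5 and 0.829 for 4 samples), which chance gives in about 1 of 20. *Fbxw15* was at 24.7 FPKM in Het MII replicate C, against 20.5 to 21.5 FPKM in the other 4 Het MII libraries. The same library was the highest of its group for all 10 genes.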

How the results depend on the processing

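The stage comparisons kept 9 or 10 called members under every alternative tried. With all 19 libraries in 1 fit, 4 members were called lower in KO in each stage, *Fbxw24* being added in MII (adjusted p = 0.0199, limma) and *Fbxw13* in 2cell (adjusted p = 0.012, limma). In MII oocytes the count of 3 members called lower in KO became 6 with no fold threshold, 2 with scaling to equal sums of FPKM and 2 to 6 with 1 library left out. In 2cell embryos the count of 3 became 1 with a pseudocount of 1 FPKM, 1 with the GC correction, 0 with scaling to equal sums of FPKM and 1 to 4 with 1 library left out. The difference between the stages gave 1 call (*Fbxw20*) with a pseudocount of 1 FPKM. Fewer genes passed the threshold under that pseudocount (481 against 1355 of all genes in MII and 1178 against 2565 in 2cell), which shrinks low values. The cause of the other changes was not tested.

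The labels do not say whether the replicate letters pair the samples. Deviations of libraries with the same letter correlated at -0.18 to 0.12 in MII (5 pairs) and -0.07 to 0.04 in 2cell (4 pairs). Libraries with different letters correlated at -0.27 to 0.27 in MII, and so few pairs cannot exclude pairing. With the letter as a replicate block, 2 members were called in MII and 0 in 2cell, and with the block and the GC correction 2 in MII and 0 in 2cell. Over all genes the block called 824 of 10515 in MII and 414 of 14051 in 2cell, and block and GC correction 910 of 10194 and 0 of 13617, so the 0 in 2cell says nothing particular about the members.

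The estimates that changed sign were not called before or after. *Fbxw22* in 2cell embryos (0.00089) became -0.0035 with quantile scaling, -0.0313 with no filter and -0.0432 with the replicate block, and lay between -0.13 and 0.14 with 1 library left out. *Fbxw19* in 2cell embryos (-0.42) became 0.0336 with the GC correction and 0.0401 with block and GC correction. The difference between the stages lay between -0.13 and 0.30 for *Fbxw19* and between -0.0090 and 0.30 for *Fbxw24* with 1 library left out.

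At the estimated depth 10 fragments are 0.335 FPKM for *Fbxw13*, so its 2cell values rest on few fragments.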
